A study of Mus musculus with 35 samples.

Results

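The genes described here encode nuclear subunits of oxidative phosphorylation, read in cranial neural crest of mouse embryos with and without the histone demethylase UTX. They were chosen by name from the RNA count table: symbols starting with Nduf plus a, b, c, s or v and a digit (complex I), Uqcr (complex III), Cox4 to Cox8 followed by a, b or c (complex IV) or Atp5 (complex V), without pseudogenes. The rule found 78 of the 23366 genes in the table, of which 37 fall to complex I, 8 to complex III, 16 to complex IV and 17 to complex V. The grouping follows the names and not the structures. Ndufa4, now placed in complex IV, is counted under complex I with its relative Ndufa4l2, and Atp5s and Atp5sl, carried in RefSeq under the symbols Dmac2l and Dmac2, are counted under complex V. Cox4i1 and Cox4i2 do not match the rule and are given with the genes that complete the chain.

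The RNA part of the series holds 6 libraries of the 35 samples in the labels, 2 in each of 3 groups. All groups carry Wnt1-Cre, which acts in the neural crest and its descendants, and the Rosa-Tomato reporter. The wild-type group (wt) is labelled WT Wnt1-Cre and is male, the male knockout (mko) is Utx fl/y, Wnt1-Cre, and the female knockout (fko) is Utx fl/fl, Wnt1-Cre. No wild-type females are among the RNA libraries, so the sex of the embryo and the loss of both copies cannot be told apart in the comparison of fko with wt. Head tissue at E12.5 was dissociated, and cells with Tomato fluorescence that excluded the dye DAPI were sorted and their RNA read with a stranded mRNA kit. The labels do not say whether the libraries of a group came from separate embryos or litters, so the p-values measure the spread between these libraries, which may be technical.

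Oxidative phosphorylation makes ATP in the inner mitochondrial membrane. Complexes I and II pass electrons from NADH and succinate to ubiquinone, complex III passes them to cytochrome c and complex IV to oxygen, and complexes I, III and IV pump protons whose return drives the ATP synthase, complex V. Most subunits are encoded in the nucleus and imported, a small core is encoded in mitochondrial DNA, and the promoters of the nuclear genes are known for sites of the factors NRF1, GABP (an ETS factor), YY1 and the estrogen-related receptors. In the embryo, the shift from glycolysis towards respiration accompanies the differentiation of many lineages.

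Reads on genes ranged from 14513993 (wt2) to 16350892 (mko2) per library. A pair of library sets was found from the share of all reads in the table that fell outside annotated genes, and the labels name no batch that corresponds to it. This share was 16.6% to 16.8% in wt1, mko2 and fko1 (set 1) and 20.9% to 21.5% in wt2, mko1 and fko2 (set 2), so each set holds 1 library of every group. Other values moved with the groups instead. Reads placed at more than 1 position made up 21.3% and 22.5% in the wild-type libraries and 23.2% to 24.4% in the knockout libraries, and Rn45s, the ribosomal RNA precursor, stood at 9028 and 3559 CPM (reads on the gene relative to the library's normalised total) in wild type and between 29815 and 50820.4 CPM in the knockouts. Kdm6a, which encodes UTX, was read at 45.6 and 51.5 CPM in wild type, 40.5 and 31.9 CPM in mko and 52.9 and 62.4 CPM in fko. Counts over a whole gene do not check the deletion of part of it.

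Together the 78 genes took 1.06% of reads on genes in wt1 and 0.811% in wt2, against 1.01% and 1.20% in mko1 and mko2 and 1.29% and 1.01% in fko1 and fko2. Their summed level was 10192, 12431 and 13734 CPM in wt1, mko2 and fko1 and 7540.4, 10298 and 10072 CPM in wt2, mko1 and fko2. Within each set the wild-type library was the lowest, and for each group the set 2 library lay below the set 1 library. Across sets the groups met: wt1 lay between the knockout libraries of set 2, above fko2 and below mko1. In bulk RNA, fewer cells of a type that holds these transcripts and less transcript per cell cannot be told apart.

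The tests cover 73 of the 78 genes, those with enough reads. In the edgeR fit of 3 group means, called the group fit from here on, 0 of 73 passed an adjusted p of 0.05 in any comparison. Among all 14521 genes tested, 1.12% passed for fko against wt, 2.34% for mko against wt, 5.11% for the mean of both knockouts against wt and 0.0344% for fko against mko. At an unadjusted p under 0.05 the counts were 23, 9, 31 and 0 of 73, against 2845, 2929, 3786 and 250 of all 14521 genes. The lowest adjusted p was 0.0905, for Ndufa11 in the mean of both knockouts. DESeq2 also called 0 in the comparisons of fko with wt, mko with wt and fko with mko. It called 5 in the mean of both knockouts, Atp5d, Ndufa11, Ndufa13, Ndufb2 and Ndufs8, all higher. The share of all genes called was not computed for DESeq2 or for fits without 1 library. A change in these genes and a change in all calls cannot be told apart there. Without fko2 the group fit called 14 for fko against wt and 27 for the mean of both knockouts, and without wt1 it called 7, 5 and 14 for fko, mko and the mean of both, in each case as higher.

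With library set added as a term, the same test called most of these genes higher in the knockouts and none lower. The counts were 64 of 73 for fko against wt, 58 for mko against wt and 67 for the mean of both knockouts, where the same fit called 12.2%, 12% and 16.3% of all tested genes higher and 11.1%, 12.7% and 16.3% lower. Between fko and mko it called 0 of 73 (0.0482% of all genes), and DESeq2 with the same term also called 0. At an unadjusted p under 0.05 the edgeR fit had 2 of 73 (613 of all 14521 genes). Without mko1 it called 1, Atp5d. The sizes barely differed between the fits. The median log2 fold change over the 73 genes was 0.44 for fko, 0.36 for mko and 0.39 for their mean in the group fit, and 0.43, 0.36 and 0.40 with the set term, whereas the median over all tested genes lay between 0.0086 and 0.013 in these 6 cases. In the group fit these medians moved when 1 library was left out: without wt2 to 0.23 for fko, 0.15 for mko and 0.18 for their mean, without wt1 to 0.67, 0.57 and 0.62, for fko to 0.20 without fko1 and for mko to 0.21 without mko2. What changed between the fits was the spread left after the fit. The SD of the median level of the 73 genes between libraries of a group was 0.28 on the log2 scale, and 0.062 once library set was taken out as well. The fit with the set term has 2 residual degrees of freedom, and its counts changed when 1 library was left out. Such fits also have fewer degrees of freedom, and the part of this in the changed counts was not tested. The share of all genes called was not computed for the fits without a library or without TMM factors. Without wt2 they fell to 12, 6 and 18 and without wt1 to 38, 27 and 43 for fko, mko and their mean, and the count for fko fell to 1 (Ndufa13) without fko1 and to 35 without fko2. Scaled by total reads without TMM factors, the median over all genes shifted to -0.11 in these comparisons, the medians of the 73 genes stayed above it at 0.31, 0.24 and 0.28, and the calls with the set term were 46, 29 and 52, all higher.

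**Figure D1:**
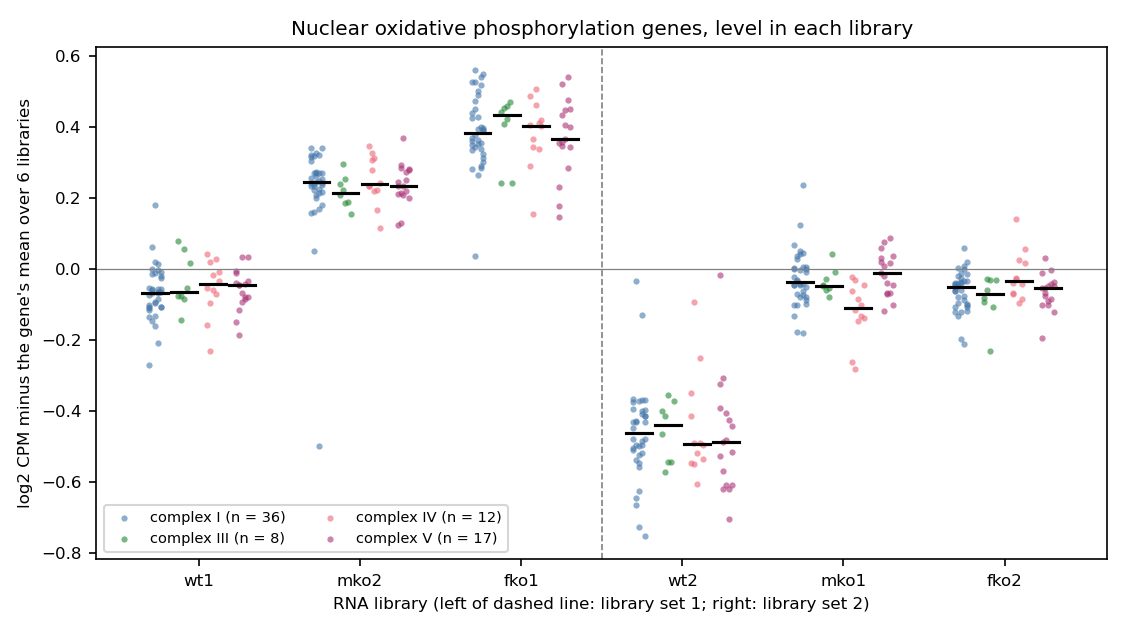
Level of each of the 73 tested genes in each library, as log2 CPM minus the gene's mean over the 6 libraries, with a bar at the median of each complex (complexes I, III, IV and V have 36, 8, 12 and 17 points); library set 1 is left of the dashed line and set 2 right of it. The median over all 73 genes was -0.059, 0.24 and 0.39 in wt1, mko2 and fko1 and -0.48, -0.044 and -0.053 in wt2, mko1 and fko2, and the medians of the 4 complexes stayed close to each other in every library.

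Genes were also counted by the order of the libraries. These counts use the same libraries, normalised CPM and library sets as the fits, so they are not separate support for them. All 4 knockout libraries lay above both wild-type libraries for 27 of 73 genes (37%; 18.8% of all tested genes), and for 0 of 73 (20.1% of all genes) they all lay below. Both fko libraries lay above both wild-type libraries for 35 genes (47.9%; 24.8% of all genes), and both mko libraries for 42 (57.5%; 29.1%). Within each set both knockout libraries lay above the wild-type library for 69 of 73 (94.5%; 31.9% of all genes). The exceptions were Atp5s, Cox7a1, Ndufa4l2 and Ndufs1, and only for Ndufs1 of the 73 did both lie below it in each set (29.6% of all genes). The comparisons of fko and mko with wt share the wild-type libraries. The ratios below share them too, wt1 for mko2 and fko1 and wt2 for mko1 and fko2, so they are not separate from each other. In set 1, mko2 exceeded wt1 for 71 of 73 genes (50.7% of all genes) with a median log2 ratio of 0.30, and fko1 exceeded wt1 for 72 (51.8%) with a median of 0.45. In set 2, mko1 exceeded wt2 for 71 (51.2%) with a median of 0.42, and fko2 exceeded wt2 for 71 (50.6%) with a median of 0.40. These 4 ratios between single libraries thus ran from 0.30 to 0.45.

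The difference between the library sets was about as large as the difference between genotypes. In the fit with both terms, 67 of 73 genes were called lower in set 2 and 0 higher (8.1% of all genes lower and 6.28% higher), with a median log2 fold change of -0.38. The set 2 library was the lower of its pair in every group for 70 of 73 genes (95.9%; 26.9% of all genes), the exceptions being Atp5s, Cox7a1 and Ndufa4l2, and the higher in every group for 0 (25.8%). The median log2 ratio was -0.41 for wt2 over wt1, -0.28 for mko1 over mko2 and -0.44 for fko2 over fko1. The count of set calls fell to 0 without fko1 or without fko2, to 25 without wt1 and to 20 without wt2. What distinguishes the sets beyond the share of reads outside genes was not tested.

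**Figure D2:**
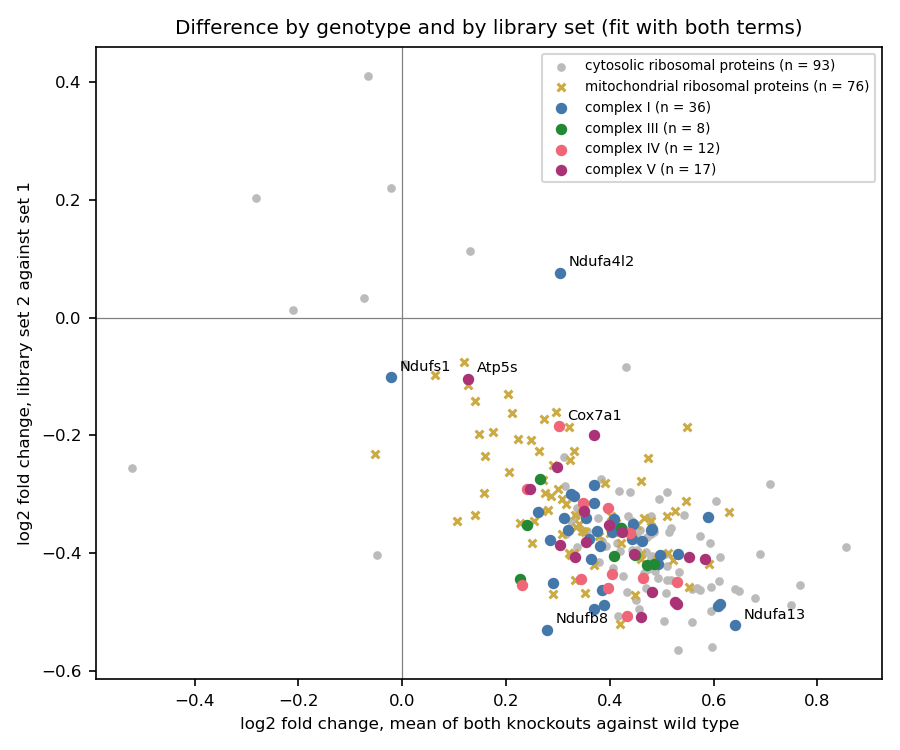
Log2 fold change by genotype, wt to the mean of fko and mko (x axis), and of library set 2 against set 1 (y axis), from the edgeR fit with both terms, 1 point per gene for the 4 complexes and for cytosolic and mitochondrial ribosomal proteins. Of the 73 genes, 72 lie right of 0 and 72 lie below 0, with Ndufs1 (-0.021 and -0.10) nearest to the origin and Ndufa4l2 above the horizontal line.

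The promoters of these genes were searched for letters bound by regulators known to act at promoters of respiratory chain genes. The search was a description, and a part of these regulators in the fold changes was not tested. RefSeq (GRCm38.p6) windows of 300 bases, from 250 before the start to 50 after it, were held for 66 of the 78 genes, of which 3 were matched through a synonym; those without one included Atp5a1, Cox6a2, Cox6c, Cox8c, Ndufa2, Ndufa4l2, Ndufb9, Ndufs1, Uqcrb, Uqcrc2 and Uqcrq. The NRF1 palindrome, GCGCA followed by its reverse complement TGCGC, occurred in 5 of 66 (7.58%), Atp5g2, Atp5k, Cox6a1, Ndufa11 and Uqcrc1, against 2.23% of tested genes with a window and 1.07% of all genes with one. Its core GCATGC, which every palindrome contains, occurred in 18.2% against 11.1% and 8.93%. The YY1 letters AAGATGGCG on either strand occurred in 8 of 66 (12.1%), against 3.24% and 1.64%. The ETS letters CCGGAAG on either strand occurred in 21.2%, against 18.1% and 9.93%, and the estrogen-related receptor letters TCAAGGTCA only in Atp5g3 (1.52%, against 0.338% and 0.466%). The GC box GGGCGG was found in 39.4%, against 69.1% and 38.2%, and TATAAA in 10.6%, against 8.87% and 15.7%. The 66 genes include some that were not tested, unlike the first share set against them. Of these, Cox7b2 and Cox8b are among the TATAAA matches and Cox7b2 is among the GC box matches. A match is a description of letters and not of binding.

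The stretches below show where the longest of these matches sit, on the strand of the gene and 5′ to 3′, with the match in capitals. The NRF1 matches lie upstream of the start in Atp5k (chr5:108434400-108434499, minus strand), Atp5g2 (chr15:102671048-102671147, minus strand), Ndufa11 (chr17:56717662-56717761, plus strand) and Cox6a1 (chr5:115349059-115349158, minus strand). The first base of the match stands at position -50 in Atp5k, -42 in Atp5g2, -60 in Ndufa11 and -162 in Cox6a1, counted from the start. The match of Uqcrc1, whose sequence is not shown, lies after the start and begins at position 31. The receptor match of Atp5g3 (chr2:73911327-73911426, minus strand) begins at -52 and reads on the opposite strand.
Atp5k: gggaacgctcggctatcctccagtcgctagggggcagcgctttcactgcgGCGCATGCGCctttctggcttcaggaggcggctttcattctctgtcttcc
Atp5g2: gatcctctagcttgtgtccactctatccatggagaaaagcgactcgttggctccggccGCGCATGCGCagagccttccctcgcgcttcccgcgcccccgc
Ndufa11: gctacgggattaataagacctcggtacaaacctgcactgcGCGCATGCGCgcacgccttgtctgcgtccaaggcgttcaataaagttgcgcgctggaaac
Cox6a1: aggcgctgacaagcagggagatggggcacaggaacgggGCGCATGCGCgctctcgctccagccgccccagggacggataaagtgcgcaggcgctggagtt
Atp5g3: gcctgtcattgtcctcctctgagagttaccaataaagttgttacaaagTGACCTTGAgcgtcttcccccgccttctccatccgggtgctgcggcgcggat
The YY1 matches sat mostly just after the start. They begin at position 23 in Ndufc1 (chr3:51408913-51408941, minus strand), 24 in Atp5j2 (chr5:145191499-145191527, minus strand), 30 in Ndufa9 (chr6:126849102-126849130, minus strand) and 25 in Ndufs7 (chr10:80249463-80249491, plus strand), and all 4 read on the strand of the gene.
Ndufc1: tgcggaacAAGATGGCGccgtccgtagtg
Atp5j2: caggacttcAAGATGGCGtcactcggtga
Ndufa9: gaggcattgtgggagAAGATGGCGgccgc
Ndufs7: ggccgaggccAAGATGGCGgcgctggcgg
The log2 fold changes of the mean of both knockouts, with the set term, were 0.53 for Atp5k, 0.33 for Atp5g2, 0.59 for Ndufa11, 0.46 for Cox6a1, 0.35 for Atp5g3, 0.28 for Ndufc1, 0.46 for Atp5j2, 0.33 for Ndufa9 and 0.53 for Ndufs7. These genes are themselves among the 73, and genes with and without a match were not compared.

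In the account of the complexes, the levels of a gene are given in CPM for the wt, mko and fko library of set 1 (wt1, mko2, fko1) and then of set 2 (wt2, mko1, fko2). CPM are not divided by transcript length, so levels are compared between libraries and not between genes. Fold changes are log2 values ± SE of the mean of both knockouts against wt from the fit with the set term, with edgeR's adjusted p. A gene is called higher if it passed 0.05 there, and none of the 73 passed in the group fit.

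Complex I has 37 genes, of which 36 were tested. With the set term 34 of 36 were called higher in the mean of both knockouts, 32 in fko and 30 in mko, and the median log2 fold change of the 36 was 0.38. The catalytic subunits, which carry the flavin and the iron-sulfur clusters in the matrix arm, had fold changes of different size. Ndufv1, which binds NADH and the flavin, stood at 119.6, 149 and 160.4 CPM in set 1 and 89.0, 122 and 125 CPM in set 2 and was called higher by 0.42 ± 0.069 (adjusted p = 0.00319). Ndufs1, the largest subunit, which holds iron-sulfur clusters in the same arm, stood at 108, 107 and 106 CPM in set 1 and 101, 98.2 and 99.8 CPM in set 2. Its fold change was -0.021 ± 0.066 (adjusted p = 0.831), and in both sets the wild-type library was the highest. Ndufs1 had the only negative fold change among the 73 genes.

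Some subunits around the ubiquinone site were among those with larger differences. Ndufs8, an iron-sulfur subunit, stood at 88.6, 118 and 134 CPM in set 1 and 57.1, 98.0 and 90.8 CPM in set 2 and was called higher by 0.61 ± 0.088 (adjusted p = 0.00204). Ndufs7, which holds the last cluster before ubiquinone, stood at 46.8, 57.2 and 66.9 CPM in set 1 and 31.2, 50.2 and 49.0 CPM in set 2 and was called higher by 0.53 ± 0.10 (adjusted p = 0.00445). For both genes all 4 knockout libraries lay above both wild-type libraries. Ndufs3, another subunit of the matrix arm, was called higher by 0.41 ± 0.088.

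Ndufa13, also known as GRIM-19, an accessory subunit needed for assembly of the complex, had the largest difference of the complex. It stood at 86.1, 117 and 136 CPM in set 1 and 55.0, 92.6 and 90.4 CPM in set 2, and was called higher by 0.64 ± 0.084 (adjusted p = 0.00144), where the group fit gave 0.63 ± 0.22 (adjusted p = 0.133). Every knockout library lay above both wild-type libraries, and within each group the set 2 library was the lower. Ndufa11, an accessory subunit of the membrane arm, stood at 61.7, 81.8 and 92.9 CPM in set 1 and 44.7, 75.2 and 68.5 CPM in set 2 and was called higher by 0.59 ± 0.091 (adjusted p = 0.00267). In the group fit its fold change was 0.58 ± 0.17, with the adjusted p of 0.0905 given above.

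The Ndufb and Ndufc genes encode accessory subunits of the membrane arm. Ndufb2 stood at 48.5, 66.9 and 79.1 CPM in set 1 and 33.8, 52.5 and 52.1 CPM in set 2 and was called higher by 0.61 ± 0.083 (adjusted p = 0.00173). Ndufc2 stood at 93.6, 143 and 163 CPM in set 1 and 86.0, 105 and 105 CPM in set 2 and was called higher by 0.50 ± 0.10 (adjusted p = 0.00695), and for both of these genes the knockout libraries all lay above the wild-type libraries. Ndufb3 and Ndufb8 had smaller differences. Ndufb8 stood at 179, 189.6 and 202 CPM in set 1 and 107, 153 and 138 CPM in set 2, so that wt1 exceeded both knockout libraries of set 2, and it was called higher by 0.28 ± 0.090 (adjusted p = 0.0419) in the mean of both knockouts but passed neither for fko (0.26 ± 0.10, adjusted p = 0.0945) nor for mko (0.30 ± 0.10, adjusted p = 0.0646). Its difference between sets, -0.53 ± 0.084, was the largest of the 73 genes in that direction. Ndufb3 was called higher by 0.26 ± 0.082 (adjusted p = 0.0372).

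The other complex I genes called higher lay between 0.28 (Ndufc1) and 0.49 (Ndufa4). Ndufa4, the subunit now assigned to cytochrome oxidase, stood at 199, 264 and 307 CPM in set 1 and 152, 207 and 215 CPM in set 2 and was called higher by 0.49 ± 0.070 (adjusted p = 0.00191). Its relative Ndufa4l2, known as a target of hypoxia-inducible factor, stood at only 1.27, 1.01 and 2.22 CPM in set 1 and 1.34, 1.77 and 1.55 CPM in set 2 and did not pass, with 0.30 ± 0.33 (adjusted p = 0.517). Here mko2 was the lowest library and the set difference was 0.076 ± 0.31. Ndufs5 was not tested, with 0, 1, 0, 0, 0 and 0 reads in wt1, mko2, fko1, wt2, mko1 and fko2. RefSeq lists a pseudogene of it, and genes with near-identical copies are uncertain where reads placed at more than 1 position were not counted.

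Of the 78 genes 3 lie on the X chromosome, as Kdm6a does: Ndufa1, Ndufb11 and Cox7b. Ndufa1, an assembly-critical subunit of the membrane arm, stood at 52.8, 70.0 and 71.6 CPM in set 1 and 41.6, 55.0 and 55.0 CPM in set 2 and Ndufb11 at 109, 128 and 148 CPM in set 1 and 89.0, 111 and 111 CPM in set 2. Cox7b, a subunit of complex IV, stood at 151, 179 and 203 CPM in set 1 and 105, 138 and 154 CPM in set 2. In the comparison of the female with the male knockout, with the set term, the log2 fold changes were 0.017 ± 0.082 for Ndufa1, 0.11 ± 0.083 for Ndufb11 and 0.17 ± 0.078 for Cox7b, and none of the 3 passed. All 3 were called higher in the mean of both knockouts, by 0.41 ± 0.073, 0.33 ± 0.073 and 0.40 ± 0.069.

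**Figure D3:**
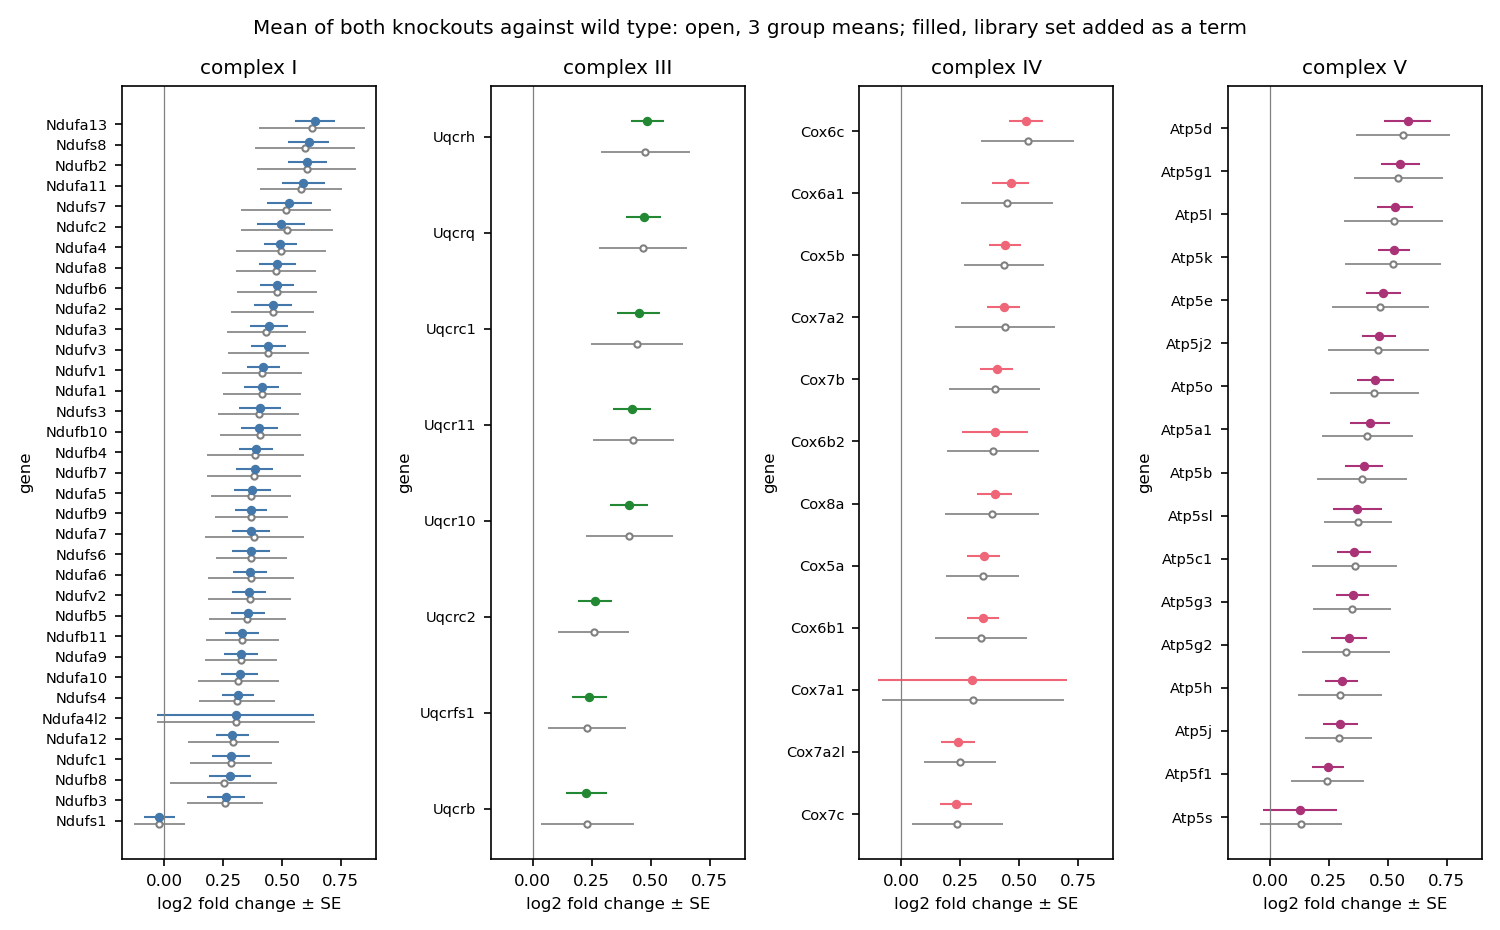
Log2 fold change ± SE between wt and the mean of fko and mko for 72 of the 73 tested genes, by complex and in order of size, from the fit of 3 group means (open) and from the fit with library set as a term (filled). The points of the fits nearly coincide and the bars of the group fit are longer, from Ndufa13 (0.63 ± 0.22 and 0.64 ± 0.084) down to Ndufs1 (-0.021 ± 0.11 and -0.021 ± 0.066).

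Complex III passes electrons from ubiquinol to cytochrome c, and all 8 of its genes were tested. With the set term 7 of 8 were called higher in the mean of both knockouts, 6 in fko and 5 in mko, with a median log2 fold change of 0.41. Uqcrh, the hinge protein beside cytochrome c1, stood at 218, 282 and 305 CPM in set 1 and 155, 226 and 226 CPM in set 2. All 4 knockout libraries exceeded both wild-type libraries, and it was called higher by 0.49 ± 0.070 (adjusted p = 0.00202). Uqcrc1 and Uqcrc2, the core proteins on the matrix side, differed in size, with 0.45 ± 0.093 and 0.27 ± 0.072. Uqcrfs1, the Rieske iron-sulfur protein that moves electrons to cytochrome c1, stood at 107, 117 and 119.9 CPM in set 1 and 76.8, 98.3 and 95.7 CPM in set 2 and was called higher by 0.24 ± 0.075 (adjusted p = 0.0365), although wt1 lay above both knockout libraries of set 2. Uqcrb, which helps form the ubiquinone site, stood at 99.5, 109 and 128 CPM in set 1 and 74.9, 90.6 and 81.6 CPM in set 2 and did not pass, with 0.23 ± 0.088 (adjusted p = 0.0756). Uqcrq, Uqcr10 and Uqcr11, small subunits of the membrane part, were called higher by 0.47 ± 0.075, 0.41 ± 0.080 and 0.42 ± 0.082.

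Complex IV, cytochrome c oxidase, has several subunits with tissue-specific isoforms, and of its 16 genes 12 were tested. With the set term 10 of 12 were called higher in the mean of both knockouts, 11 in fko and 8 in mko, with a median log2 fold change of 0.40. Cox6c, a small subunit of the membrane part, stood at 168, 239 and 263 CPM in set 1 and 129, 179.9 and 179 CPM in set 2. Its knockout libraries all exceeded the wild-type libraries, and it was called higher by 0.53 ± 0.071 (adjusted p = 0.00156), the largest difference of the complex. Cox7c stood at 97.2, 111 and 125 CPM in set 1 and 74.1, 78.7 and 89.9 CPM in set 2, with wt1 above both knockout libraries of set 2, and was called higher by 0.23 ± 0.069 (adjusted p = 0.0316) in the mean and by 0.32 ± 0.079 in fko, but did not pass in mko (0.14 ± 0.079, adjusted p = 0.218). Cox5a and Cox5b, on the matrix side of the enzyme, were called higher by 0.35 ± 0.068 and 0.44 ± 0.068.

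Several subunits of the complex have a second form known from muscle or testis. Cox6a1, the form found in most tissues, stood at 109, 128 and 151 CPM in set 1 and 72.2, 104 and 112 CPM in set 2 and was called higher by 0.46 ± 0.079, while Cox6a2, the heart and skeletal muscle form, had 0 reads in all 6 libraries, which allows a level of up to 0.190 to 0.204 CPM per library by counting error alone. Cox6b1 stood at 193, 220.4 and 251 CPM in set 1 and 134, 172 and 183 CPM in set 2 and was called higher by 0.35 ± 0.069. Cox6b2, known from testis, stood at 9.76, 10.8 and 13.3 CPM in set 1 and 7.04, 9.68 and 10.4 CPM in set 2 and did not pass in the mean of both knockouts (0.40 ± 0.14, adjusted p = 0.0551), though it passed in fko (0.50 ± 0.16, adjusted p = 0.0495).

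Of the Cox7a family, Cox7a2, the common form, stood at 146, 188 and 216 CPM in set 1 and 106, 137 and 142 CPM in set 2 and was called higher by 0.43 ± 0.070. Cox7a1, the muscle form, stood at 0.570, 0.886 and 0.783 CPM in set 1 and 0.640, 0.545 and 0.775 CPM in set 2 and did not pass (0.30 ± 0.40, adjusted p = 0.597). Cox7a2l, a factor that joins complex III to complex IV in supercomplexes, stood at 173, 204 and 230.1 CPM in set 1 and 153, 169.7 and 172 CPM in set 2 and was called higher by 0.24 ± 0.074 (adjusted p = 0.0345). Cox8a stood at 117, 145 and 146 CPM in set 1 and 78.6, 106 and 113 CPM in set 2 and was called higher by 0.40 ± 0.073. The muscle form Cox8b had 0, 1, 0, 0, 0 and 0 reads in wt1, mko2, fko1, wt2, mko1 and fko2. In the same order the testis forms Cox8c and Cox7b2 had 0, 0, 1, 0, 0 and 0 and 1, 1, 1, 0, 1 and 1 reads. None of these 3 was tested.

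**Figure D4:**
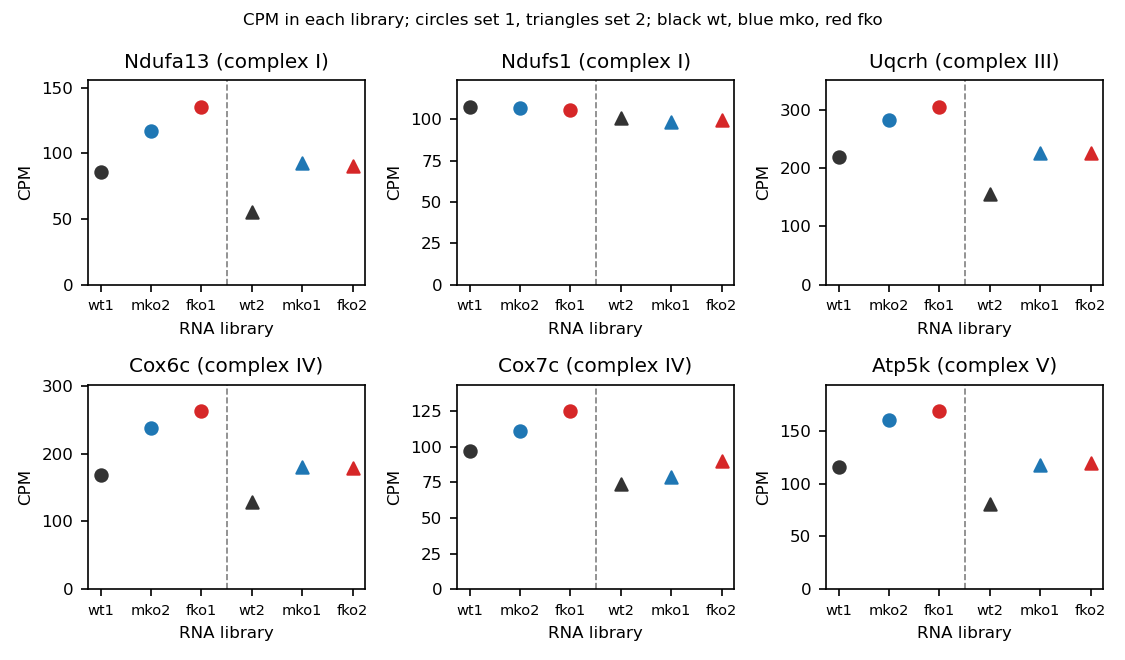
Level in CPM of Ndufa13, Ndufs1, Uqcrh, Cox6c, Cox7c and Atp5k in each of the 6 libraries, with set 1 as circles left of the dashed line and set 2 as triangles right of it, each y axis starting at 0. In 5 of the 6 genes the wild-type library is the lowest of its set, while Ndufs1 stays between 98.2 and 108 CPM.

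Complex V is the ATP synthase, with a catalytic F1 head, a membrane ring of c subunits that turns a central stalk, and a peripheral stalk that holds the head still. All 17 of its genes were tested, and with the set term 16 were called higher in the mean of both knockouts, 15 in fko and 15 in mko, with a median log2 fold change of 0.40. The head subunits alpha and beta, encoded by Atp5a1 and Atp5b, were called higher by 0.42 ± 0.083 and 0.40 ± 0.081. Atp5b, the catalytic subunit, stood at 1015, 1214 and 1341 CPM in set 1 and 747, 1053 and 1008 CPM in set 2, with wt1 between fko2 and mko1. The central stalk held the largest difference. Atp5d, the delta subunit, stood at 155, 190.5 and 228 CPM in set 1 and 100.5, 174 and 163 CPM in set 2 and was called higher by 0.58 ± 0.10 (adjusted p = 0.00363), and all 4 knockout libraries lay above both wild-type libraries. The other stalk subunits gamma (Atp5c1) and epsilon (Atp5e) were called higher by 0.35 ± 0.072 and 0.48 ± 0.075.

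The c ring is encoded by Atp5g1, Atp5g2 and Atp5g3, which give the same mature protein behind different import sequences. Atp5g1 stood at 91.4, 121 and 134 CPM in set 1 and 64.4, 104 and 94.5 CPM in set 2 and was called higher by 0.55 ± 0.083 (adjusted p = 0.00240). Atp5g2 stood at 177, 199.8 and 223 CPM in set 1 and 124, 168 and 162 CPM in set 2 and was called higher by 0.33 ± 0.077 (adjusted p = 0.0113). Atp5g3 stood at 259.9, 318 and 326 CPM in set 1 and 199, 271 and 252 CPM in set 2 and was called higher by 0.35 ± 0.069 (adjusted p = 0.00621). Only for Atp5g1 of the 3 did all 4 knockout libraries exceed both wild-type libraries, and the differences between the 3 fold changes were not tested.

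The membrane subunits e, f and g, which help the synthase dimerise, are encoded by Atp5k, Atp5j2 and Atp5l. Atp5k stood at 116, 159.9 and 169 CPM in set 1 and 81.1, 118 and 119.8 CPM in set 2 and was called higher by 0.53 ± 0.067 (adjusted p = 0.00138), and Atp5j2 and Atp5l by 0.46 ± 0.072 and 0.53 ± 0.075. The peripheral stalk genes Atp5f1, Atp5h, Atp5j and Atp5o were called higher by 0.25 ± 0.067, 0.30 ± 0.069, 0.30 ± 0.073 and 0.45 ± 0.077. Atp5s, which is named for the synthase but is not one of its structural subunits, stood at 7.48, 9.05 and 9.40 CPM in set 1 and 8.20, 8.65 and 7.24 CPM in set 2 and did not pass (0.13 ± 0.16, adjusted p = 0.565), with wt2 above fko2. Atp5sl was called higher by 0.37 ± 0.10 (adjusted p = 0.0260).

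Other genes complete the chain. Complex II, the succinate dehydrogenase of the citrate cycle, is encoded by Sdha, Sdhb, Sdhc and Sdhd, and 4 of 4 were called higher with the set term, by 0.22 ± 0.066, 0.39 ± 0.083, 0.43 ± 0.081 and 0.45 ± 0.087. Cox4i1, the main form of the regulatory subunit of complex IV, stood at 381, 487 and 556 CPM in set 1 and 268, 384 and 377 CPM in set 2 and was called higher by 0.48 ± 0.074 (adjusted p = 0.00267). Cox4i2, known from lung, stood at 5.13, 5.44 and 6.33 CPM in set 1 and 2.50, 5.18 and 4.85 CPM in set 2 and did not pass (0.54 ± 0.22, adjusted p = 0.0874). Cycs, cytochrome c, stood at 145, 213 and 216 CPM in set 1 and 133, 169 and 175 CPM in set 2. Its knockout libraries all exceeded the wild-type libraries, and it was called higher by 0.47 ± 0.074 (adjusted p = 0.00277). In the group fit 0 of these genes passed, with the lowest adjusted p of 0.0973 for Cycs. The subunits encoded in mitochondrial DNA were not analysed here.

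Assembly factors, which build the complexes but are not part of them, were described by a list of their own. For this list and those after it, calls with the set term refer to the mean of both knockouts. That fit called 16.3% of all genes higher and 16.3% lower. Of 44 tested, 18 were called higher and 0 lower with the set term, with a median log2 fold change of 0.28. Ndufaf2, an assembly factor of complex I, also passed in the group fit. It stood at 22.7, 38.2 and 40.3 CPM in set 1 and 20.4, 32.6 and 32.4 CPM in set 2, with every knockout library above both wild-type libraries, and its fold change there was 0.73 ± 0.14 (adjusted p = 0.0266). Tmem70, needed for the ATP synthase, and Lyrm7, which acts on the Rieske protein, had group-fit fold changes of 0.49 ± 0.13 and 0.98 ± 0.28 (adjusted p = 0.0630 and 0.0836).

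Regulators of mitochondrial biogenesis formed a further list. They include the factors named above for these promoters. Of 16 tested, 1 was called higher and 1 lower with the set term (16.3% of all genes each way), and the median was -0.058. Tfam, which binds and packages mitochondrial DNA and helps to start its transcription, was called higher by 0.22 ± 0.073 (adjusted p = 0.0422). Esrrb, an estrogen-related receptor, stood at 7.29, 4.56 and 2.29 CPM in set 1 and 11.2, 3.20 and 6.20 CPM in set 2 and was called lower by -1.17 ± 0.28 (adjusted p = 0.0138). Esrra, a receptor of the same family that is known to act on respiratory genes, was at -0.29 ± 0.12 and did not pass (adjusted p = 0.0960).

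In the citrate cycle 10 of 17 genes were called higher and 0 lower with the set term, with a median of 0.22. Pdha1, the X-linked subunit of pyruvate dehydrogenase, was called higher by 0.35 ± 0.069. Suclg2 and Mdh2, enzymes of the cycle, were called higher by 0.29 ± 0.077 and 0.40 ± 0.077. In glycolysis 8 of 17 genes were called higher and 1 lower, with a median of 0.27. Ldha, lactate dehydrogenase, stood at 429, 601 and 676 CPM in set 1 and 286, 521 and 494 CPM in set 2 and was called higher by 0.70 ± 0.088 (adjusted p = 0.00133), and Pgam1 by 0.55 ± 0.077. Eno2, the enolase of neurons, fell and passed in both fits, with a group-fit fold change of -0.72 ± 0.16 (adjusted p = 0.0422). The medians of both lists thus had the sign of the median of the oxidative phosphorylation genes.

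Ribosomal protein genes, which serve translation, were read beside them. Of 93 genes for cytosolic ribosomal proteins, 81 were called higher and 1 lower with the set term, with a median of 0.46. In set 2, 78 were called lower and 1 higher (8.1% of all genes lower and 6.28% higher). Of 76 genes for mitochondrial ribosomal proteins, 52 were called higher and 0 lower, with a median of 0.33, and 45 were called lower in set 2 (8.1% of all genes). In the group fit 0 passed in either list, as for the 73 genes. In the mean of both knockouts 46 and 25 had an unadjusted p under 0.05, against 3786 of all 14521 genes. The medians of both lists thus had the sign of that of the 73 genes by genotype and by library set. The part of Rn45s and of the reads outside genes, which moved with genotype and with library set, in these differences was not tested.

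**Figure D5:**
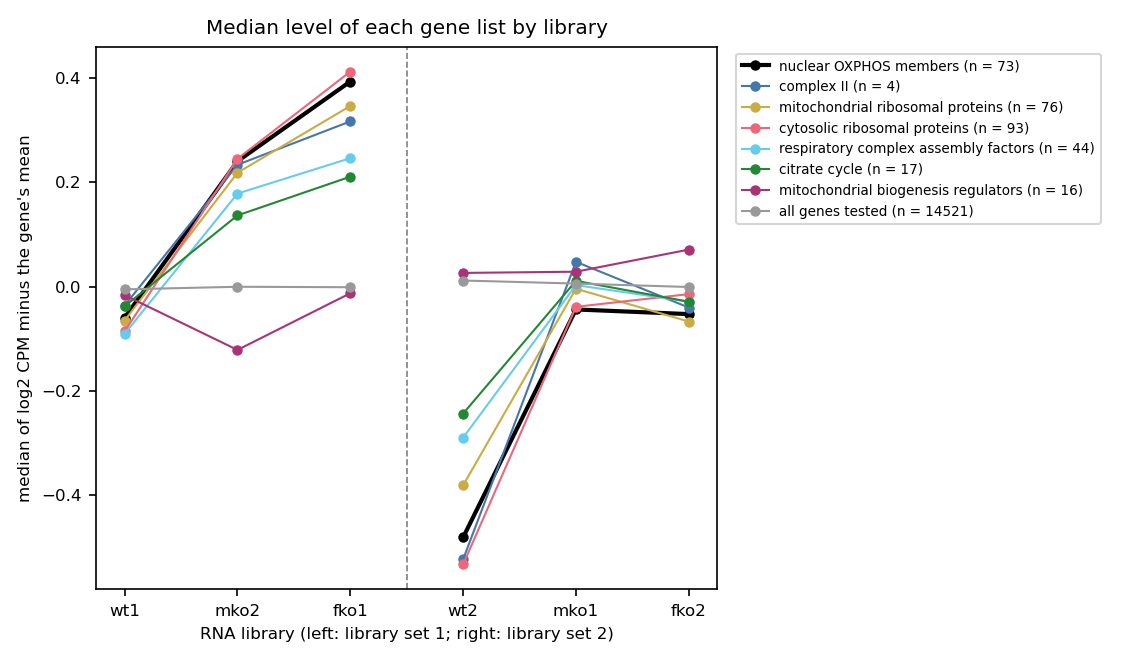
Median level of a selection of the gene lists in each library, as log2 CPM minus the gene's mean over the 6 libraries, with library set 1 left of the dashed line and set 2 right of it. Glycolysis, Cox4i1, Cox4i2, Cycs and the marker lists are not drawn. The oxidative phosphorylation genes (thick black line) and the cytosolic ribosomal proteins run together, from -0.48 and -0.53 in wt2 to 0.39 and 0.41 in fko1, while the regulators of mitochondrial biogenesis stay between -0.12 and 0.071.

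Markers of the sorted cells and of others the sort could hold were read in the same libraries. Their calls stand beside 16.3% of all genes called higher and 16.3% called lower with the set term. The 15 markers of neural crest and facial mesenchyme, all detected, summed to 1837 and 1989 CPM in wild type and 2189 to 2416 CPM in the knockouts, and 7 of 15 were called higher with the set term. The 10 neuronal markers summed to 1869 and 2079.7 CPM in wild type and 1077 to 1801 CPM in the knockouts, and 5 were called lower and 1 higher. The 14 skeletal muscle markers summed to 8.43 and 9.16 CPM in wild type and 4.37 to 7.22 CPM in the knockouts, with 2 of the 7 tested called lower. The part of these markers in the differences of the oxidative phosphorylation genes was not tested.

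The 10 erythroid markers summed to 310.1 to 514 CPM in 5 libraries and to 1362 CPM in mko2, with Hba-a1 and Hba-a2 at 0 in all 6 libraries. With the set term, 2 of the 5 tested erythroid markers were called lower in set 2 and 0 higher (8.1% of all genes lower and 6.28% higher), with a median log2 fold change of -1.06. Their median log2 ratio of set 2 over set 1 was -0.71 in wt, -2.06 in mko and -0.12 in fko. For mko against wt the same fit called 0 of 5 (12% of all genes higher and 12.7% lower), with 5 of 5 positive and a median of 0.86. Without mko2, which leaves mko1 alone in its group, the set-term medians of the 73 genes were 0.43 for mko against wt and 0.44 for the mean of both knockouts. Leaving out mko2 cannot separate its erythroid reads from its other traits, and the other libraries hold erythroid reads too. The part of erythroid transcripts in the differences by genotype or by library set was not tested. Endothelial markers (7) summed to 10.7 to 15.0 CPM, leukocyte markers (9) to 6.72 to 11.9 CPM and epithelial markers (8) to 13.2 to 20.4 CPM over the 6 libraries. With the set term, 0 of the 7 tested endothelial and 0 of the 7 tested leukocyte markers passed in the mean of both knockouts. Of the 7 tested epithelial markers 1 was called higher, where 16.3% of all genes were.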

How the data were processed

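RNA from 6 libraries of sorted cranial neural crest was analysed. The deposited table holds raw read counts per gene, which the authors made on build mm9 with tools that include Trimmomatic, TopHat2 and HTSeq, per the submitters' processing notes, with versions not stated. The annotation and the strand setting of the counting are not given in the sources used here, so values of genes that overlap an antisense neighbour may hold its reads. The summary lines (16.6% to 21.5% of reads outside genes, 0.462% to 0.59% ambiguous, 21.3% to 24.4% placed at more than 1 position) stayed out of library sizes and tests.

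Counts of all 6 libraries were fitted together with edgeR 4.0.16 in R 4.3.3 (filterByExpr, TMM factors, quasi-likelihood test), with a mean for each of 3 groups. Benjamini-Hochberg adjustment ran over 14521 genes, and a gene was called at 0.05. The fit was checked on simulated data. CPM use reads on genes times the TMM factor. Centred levels are log2 CPM with a prior count of 2, ratios between single libraries use a pseudocount of 0.5 CPM, and the limit for 0 reads is 3 counts per library and covers counting error only. The fit with library set as a term splits the libraries at the median share of reads outside genes (18.8%). Replicate numbers were not used to pair the libraries in either fit.

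Other settings tried were DESeq2 1.42.0, RLE scaling, total reads without TMM, no low-count filter, a replicate block, fits of only the groups compared and leaving out each library. The same settings inside the set-term fit were added after the data had been seen. The members, the gene lists and the library sets were chosen with earlier results of these data known.

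Genes named with values in every library were the largest and smallest fold change of each complex in the mean of both knockouts, the isoform families, and a choice by role, made after the values were seen, among the 67 that passed between library sets; up to 3 genes of smallest p are named per pathway list. Motifs were searched with Python 3.11.15 in RefSeq promoter windows (GRCm38.p6), which served for sequence and not for placing peaks. Of the tested genes, 1 counts in the totals but is not reported here by name or in the plot of fold changes by gene. Plots were drawn with matplotlib 3.10.9. The chromatin data and protein sequences were not used here.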

Additional observations from a re-analysis of the deposited data

How the results depend on the processing

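The counts of genes called and the median log2 fold changes were recomputed under each alternative. With library set as a term the counts of 0 in the fit of 3 group means rose to 64 (fko against wt), 58 (mko against wt) and 67 (mean of both knockouts), and DESeq2 gave 5 for the mean. RLE scaling, total reads, no low-count filter and fits of only the groups compared left every such count at 0 (the mean of both knockouts uses all groups, so the last was not run for it). With the replicate number as a block 0 genes passed in any comparison, with medians of 0.44, 0.38, 0.40 and 0.051 for fko, mko and their mean against wt and for fko against mko. In deviations from group means, libraries of the same number correlated at -0.24 (wt and mko), 0.43 (wt and fko) and -0.23 (mko and fko). The library sets keep the numbers of wt and fko together and cross those of mko. With 2 libraries a group, these correlations cannot decide whether the numbers pair libraries by embryo or litter.

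Leaving out 1 library at a time, the group-fit counts ran from 0 to 14 (fko), 0 to 5 (mko: Atp5d, Ndufa11, Ndufa13, Ndufs7 and Ndufs8 without wt1) and 0 to 27 (mean), and the set-term counts from 1 to 69 (fko), 6 to 66 (mko), 18 to 69 (mean) and 0 to 1 (fko against mko, Atp5d without mko1). Calls between library sets ran from 0 to 68. A library left alone in its group was assumed to vary like the others. Shares of all genes called were computed only for the edgeR fits of all 6 libraries with TMM factors, without and with the set term. The counts under other settings thus have no such share beside them. Medians against wt kept their sign throughout. In the group fit they ran from 0.20 to 0.67 (fko), 0.15 to 0.57 (mko) and 0.18 to 0.62 (mean) without a library. With the set term the median for mko ran from 0.29 to 0.43 without a library, and total reads gave 0.31, 0.24 and 0.28 for fko, mko and their mean, with 29 calls for mko. The median for fko against mko changed sign, from -0.18 to 0.28 in the group fit (-0.18 without fko1, -0.059 without mko1) and from -0.014 (without mko2) to 0.14 (without mko1) with the set term. The cause of these changes was not tested. Cox6a2, Cox7b2, Cox8b, Cox8c and Ndufs5 had too few reads to test; whether more depth would change this was not tested.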
